A study of Mus musculus with 6 samples.

Results

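The SR proteins are splicing factors named for a domain rich in serine and arginine, and 10 of their genes, *Srsf1* to *Srsf7*, *Srsf9*, *Srsf10* and *Srsf11*, are described here out of 46078 genes in the count table. They were found by gene symbol, with no threshold on a measured value, but the list was chosen with earlier results of these data known. All 10 passed the filters on low values in both measures used. The question was how the RNA of these genes differs between C2C12 cells that lack the RNA-binding protein Hnrnpa2b1 and cells that carry it.

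An SR protein binds short enhancer sequences in exons through its RNA recognition motifs, and its serine- and arginine-rich domain helps to bring the U1 and U2 particles of the spliceosome to the neighbouring splice sites. Kinases of the SRPK and CLK families phosphorylate this domain and so set where the protein resides and whether it acts. Many SR genes also make transcripts with a retained intron or a "poison" exon carrying an early stop codon, which nonsense-mediated decay (NMD) can degrade, and several SR proteins promote such transcripts of their own genes. The hnRNP A/B family, to which Hnrnpa2b1 belongs, is known for opposing SR proteins at shared exons.

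RNA was sequenced from 3 libraries of *Hnrnpa2b1* knockout (KO) and 3 of wild type (WT) C2C12, an immortalized mouse myoblast line. All cells had been differentiated for 2 days by withdrawal of serum and a supplement of insulin, transferrin and selenium, so the cultures held myoblasts and myotubes. The KO was made with CRISPR-Cas9 and puromycin selection, and both genotypes were isolated as clones with cloning rings, 3 of each genotype per the methods, with WT cells treated with a scrambled guide according to a figure legend. A legend calls the 3 datasets of each genotype independent, but the sources used here do not say which clone or culture a library came from, so p-values measure only the spread between these libraries. The libraries are called KO1 to KO3 and WT1 to WT3.

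Between 33605258 and 40558740 reads were counted on genes per library. Read counts are given as CPM, counts relative to the library total after edgeR's TMM scaling. Genes are compared with each other only in TPM, which also correct for transcript length and are relative to all transcripts of a library. *Hnrnpa2b1* itself had 159, 195 and 249 CPM in KO1 to KO3, against 225, 229 and 252 CPM in WT1 to WT3. The genotypes overlapped in counts (KO over WT, log2 fold change −0.23, standard error 0.18, edgeR adjusted p = 0.381). In TPM it had 29.5, 38.0 and 59.9 in KO1 to KO3, against 56.6, 57.4 and 58.0 in WT1 to WT3 (log2 difference −0.49, limma adjusted p = 0.171). KO1 and KO2 lay below all WT libraries in both measures and KO3 did not, so its RNA level does not tell every KO library from WT. Per the methods, loss of the protein in the clones was checked by immunofluorescence and Western blotting. Of 9 muscle markers 8 were found, and their summed level was 12282, 6157 and 5121 CPM in KO1 to KO3 against 12781, 10831 and 13731 in WT1 to WT3. Of these 8, *Myod1* rose in counts (log2 fold change 0.99, edgeR adjusted p = 0.0141) and *Actn2* fell (−2.94, 0.00212), where 22.7% of all genes were called. In TPM *Myh3* (−1.44, limma adjusted p = 0.0404) and *Tnni1* (−1.23, 0.0354) were lower as well. With them 3 of the 8 were called lower in TPM and 1 higher, where 11.9% and 8.59% of all genes were. All 6 markers of fat, endothelial, blood and epithelial cells together reached 0.0839 to 0.566 CPM in any library.

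In the counts, 7 of the 10 SR genes rose in KO and 0 fell (edgeR's quasi-likelihood test, adjusted p under 0.05 over 14828 genes), where 12.1% of all genes tested were called higher and 10.6% lower, 22.7% in all. The 7 were *Srsf1*, *Srsf2*, *Srsf3*, *Srsf5*, *Srsf6*, *Srsf7* and *Srsf9*, with rises of 1.45-fold to 2.37-fold. In each of them every KO library lay above every WT library, which held for 22.7% of all genes tested, and in 0 of the 10 was every KO library below (21.6% of all genes). The median log2 fold change was 0.71 over the 10 genes and 0.03 over all genes. *Srsf4*, *Srsf10* and *Srsf11* did not pass the threshold. An unadjusted p under 0.05 was also reached by 7 of the 10, against 39.0% of all genes. DESeq2 called 7, against 23.9% of all genes that it gave an adjusted p. The number called depended on the libraries included, with 7 without KO1, 3 without KO2, 2 without KO3, 1 without WT1, 4 without WT2 and 1 without WT3. The share of all genes called in these fits was 30.6%, 17.7%, 13.9%, 6.01%, 13.6% and 8.43% in the same order. All 7 stayed positive in each of these fits, and *Srsf6* was called in every one.

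**Figure D1:**
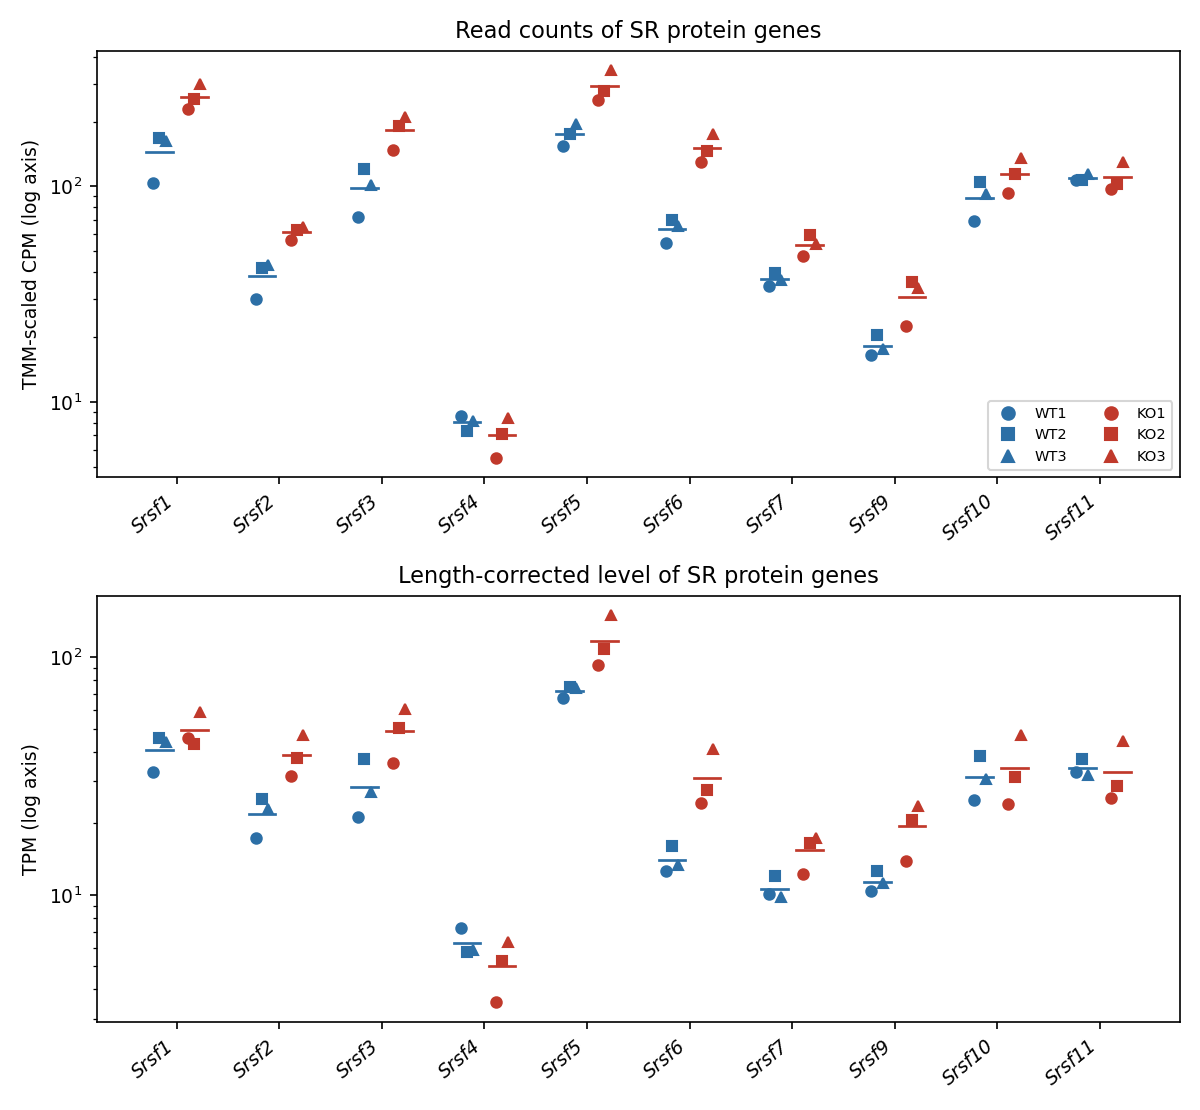
Level of the 10 SR genes in each library, as TMM-scaled CPM (upper panel, log axis) and as TPM (lower panel, log axis). Points are single libraries, WT in blue and KO in red, and short lines are means of 3. In the upper panel KO and WT points are fully apart for 7 genes, as for *Srsf6* with 130.0 to 175 CPM in KO and 54.7 to 69.6 in WT, while those of *Srsf4*, *Srsf10* and *Srsf11* overlap.

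*Srsf4*, *Srsf5* and *Srsf6* encode closely related SR proteins with a pair of RNA recognition motifs. *Srsf6* (ENSMUSG00000016921, chromosome 2, 162931528 to 162937121) had 130.0, 146 and 175 CPM in KO1 to KO3, against 54.7, 69.6 and 65.8 CPM in WT1 to WT3. The KO libraries were well clear of the WT libraries, with the lowest KO value far above the highest WT value. The log2 fold change was 1.25 (standard error 0.16, edgeR adjusted p = 0.00299), the highest of the 10 before the regional correction given here. *Srsf5* (ENSMUSG00000021134, chromosome 12, 80945504 to 80950507) had 253, 276 and 347 CPM in KO and 154, 175 and 194 CPM in WT. KO3 was the highest library and WT1 the lowest, without overlap between genotypes (log2 fold change 0.74, standard error 0.17, edgeR adjusted p = 0.0195). Both genes lie among neighbours that were also higher in KO. Relative to all genes, the median log2 fold change was 0.51 over 89 tested genes in the stretch of 10 Mb around *Srsf6* and 0.34 over 97 around *Srsf5*, and 0.35 over the 483 tested genes of chromosome 12. With the regional median removed, *Srsf6* stayed called at a log2 fold change of 0.73 (edgeR adjusted p = 0.0178, and 1.04e-08 to 0.0225 over all alternatives), below *Srsf3* at 0.92 and *Srsf1* at 0.81 in the same fit. *Srsf5* was no longer called, at 0.40 (edgeR adjusted p = 0.124), and it also lost its call without WT1, WT2 or WT3. Over all alternatives its adjusted p ran from 0.00236, in DESeq2, to this 0.124. At the other 8 genes the regional medians lay between −0.03 and 0.05. DNA copy number was not tested.

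*Srsf4* (ENSMUSG00000028911, chromosome 4, 131873617 to 131901706) is the least abundant of the 10, with 197 to 346 reads per library. It had 5.51, 7.12 and 8.45 CPM in KO1 to KO3, against 8.62, 7.31 and 8.14 CPM in WT1 to WT3. KO1 was the lowest and the other libraries intermingled (log2 fold change −0.19, standard error 0.21, edgeR adjusted p = 0.540). An annotated gene on the opposite strand, *Gm12992*, overlaps 43.0% of its exon bases. The sources used here do not state whether counting used strand, so reads of the overlapping stretch cannot be told apart.

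*Srsf1* and *Srsf9* form another related pair. *Srsf1*, which also acts in translation and NMD, lies on chromosome 11 from 88047373 to 88053755 (ENSMUSG00000018379). Its CPM were 228, 254 and 300 in KO1 to KO3, against 104, 169 and 162 in WT1 to WT3. The genotypes did not overlap, and WT1 stood below the other WT libraries (log2 fold change 0.85, standard error 0.21, edgeR adjusted p = 0.0266). Leaving out any of KO3, WT1 and WT3 ended the call (adjusted p up to 0.0875). *Srsf9* (ENSMUSG00000029538, chromosome 5, 115327177 to 115333080) had 22.5, 36.0 and 33.6 CPM in KO and 16.5, 20.5 and 17.5 CPM in WT. KO1 lay close to the highest WT library and the other KO libraries well above it (log2 fold change 0.76, standard error 0.20, edgeR adjusted p = 0.0327). Without KO1 the log2 fold change was 0.93 (edgeR adjusted p = 0.00390), and without any of the other 5 libraries *Srsf9* was not called (adjusted p up to 0.134).

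*Srsf2* encodes a mostly nuclear SR protein that binds exonic enhancers. It lies on chromosome 11 from 116849901 to 116853094 (ENSMUSG00000034120) and had 56.4, 62.7 and 64.7 CPM in KO1 to KO3, against 30.1, 42.0 and 43.3 CPM in WT1 to WT3. The KO libraries lay close together, and WT1 was the lowest of all 6 (log2 fold change 0.67, standard error 0.16, edgeR adjusted p = 0.0247). Exons of *Mettl23* and *Mfsd11* on the opposite strand overlap 15.6% and 9.74% of its exon bases, with the same limit on strand as for *Srsf4*. Leaving out any of KO2, KO3, WT1 and WT3 ended the call (adjusted p up to 0.0870).

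*Srsf3* and *Srsf7* encode small SR proteins with a single RNA recognition motif, known for coupling splicing to mRNA export through Nxf1. *Srsf3* (ENSMUSG00000071172, chromosome 17, 29032673 to 29043366) had 148, 190.2 and 210.0 CPM in KO1 to KO3, against 72.3, 121 and 102 CPM in WT1 to WT3. All KO libraries were above all WT libraries, and WT1 was again the lowest (log2 fold change 0.89, standard error 0.22, edgeR adjusted p = 0.0247). *Srsf7* (ENSMUSG00000024097, chromosome 17, 80200089 to 80207305) had 47.6, 59.4 and 53.8 CPM in KO and 34.6, 39.5 and 36.9 CPM in WT. Its rise was the smallest of the 7, with no overlap (log2 fold change 0.53, standard error 0.13, edgeR adjusted p = 0.0254). *Srsf3* was not called without KO2, KO3, WT1 or WT3 (adjusted p up to 0.0893), and *Srsf7* was called only without KO1 among the fits that left out a library (adjusted p up to 0.120).

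*Srsf10* and *Srsf11* are divergent members. *Srsf10*, whose protein represses splicing when it is dephosphorylated, lies on chromosome 4 from 135855747 to 135869908 (ENSMUSG00000028676). It had 93.5, 115 and 136 CPM in KO1 to KO3, against 69.4, 105 and 92.0 CPM in WT1 to WT3. KO1 lay within the WT range and the other KO libraries above it (log2 fold change 0.37, standard error 0.20, edgeR adjusted p = 0.201). *Srsf11* (ENSMUSG00000055436, chromosome 3, 158010473 to 158036639) had 97.8, 103 and 130.0 CPM in KO and 107, 107 and 114 CPM in WT. KO1 and KO2 were below all WT libraries and KO3 above them, so that the log2 fold change was 0.01 (standard error 0.14, edgeR adjusted p = 0.958), with a sign that depended on the scaling.

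The libraries of each genotype also differed together across the SR genes. Relative to the WT mean, the 10 genes had a median log2 deviation of 0.45 for KO1, 0.70 for KO2 and 0.83 for KO3. For WT1, WT2 and WT3 it was −0.19, 0.14 and 0.07. KO3 was thus the highest and WT1 the lowest library. The summed level of 12 proliferation markers was 653 to 767 CPM in KO and 405 to 494 CPM in WT, also without overlap, although 2 of the 12 were called. *Rrm2* carried much of it, with 156 to 307 CPM in KO and 52.9 to 73.0 CPM in WT. Without *Rrm2*, a sum taken after its values were seen, the other 11 reached 346, 610.1 and 555 CPM in KO1 to KO3 and 332, 365 and 423 CPM in WT1 to WT3, so that KO1 lay within the WT range. KO3 was also highest in the summed level of the SR-related splicing proteins described further on, at 2716 CPM against 2053 to 2322 in the other libraries. It was highest for the NMD and exon junction genes too (978 against 910 to 944 CPM), but lowest for the kinases, phosphatase and transport factors (1314 against 1355 to 1483 CPM). The summed level of the muscle markers was lowest in KO3. Their part in the differences of the SR genes was not tested. In bulk RNA a change in the share of cells of a kind and a change in RNA per cell cannot be told apart.

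**Figure D2:**
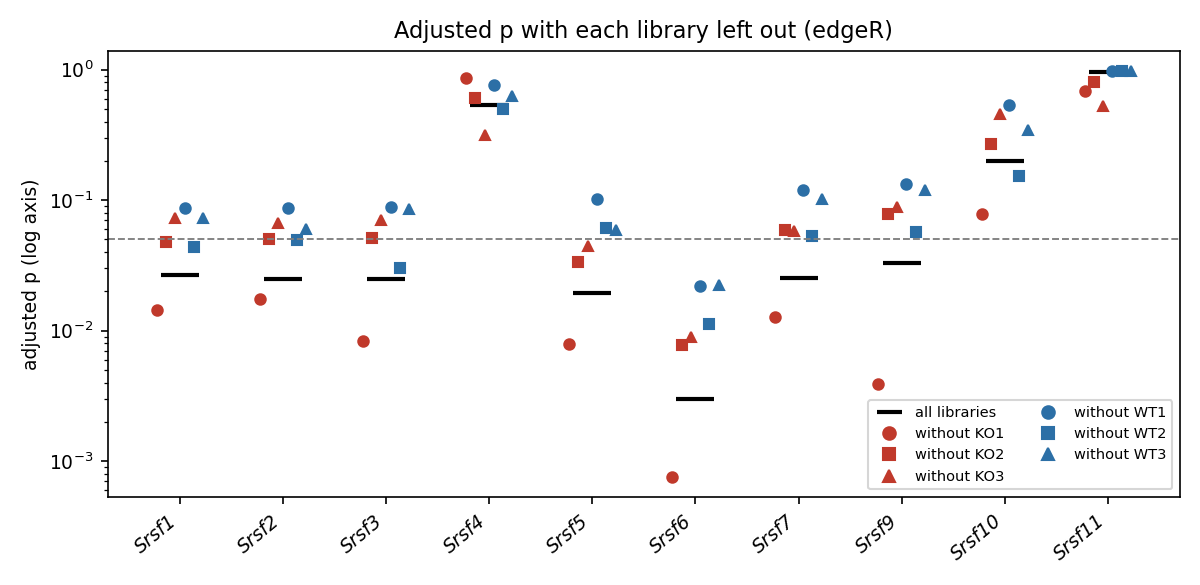
Adjusted p (log axis) of the log2 fold change of each SR gene in edgeR with all 6 libraries (black bars) and with each library left out in turn (points, coloured by the genotype of the library left out). The dashed line is 0.05. *Srsf6* stays under the line in all fits, at 0.000762 to 0.0225, and most points of the other 6 called genes lie around or above it except without KO1.

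The 100 bases before the RefSeq transcription start are shown for 4 genes: the 3 with the highest log2 fold changes in the counts, *Srsf6*, *Srsf3* and *Srsf1*, and *Srsf11*, which had a value near 0. They are read 5′ to 3′ on the strand of the gene from GRCm38.p6, and capitals mark matches on either strand to 5 short motifs. These were the TATA box, searched as TATAA, the box named for its letters CCAAT, the binding site of the Sp family of factors, searched as GGGCGG, the core of sites for the Ets family of factors, searched as CGGAAG, and the inner part of a cAMP response element, searched as TGACG. The windows are chr2:162931408-162931507 on the plus strand for *Srsf6*, chr17:29032560-29032659 on the plus strand for *Srsf3*, chr11:88047273-88047372 on the plus strand for *Srsf1* and chr3:158036607-158036706 on the minus strand for *Srsf11*.
Srsf6: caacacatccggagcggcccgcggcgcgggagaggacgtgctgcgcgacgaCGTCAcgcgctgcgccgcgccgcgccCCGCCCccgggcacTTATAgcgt
Srsf3: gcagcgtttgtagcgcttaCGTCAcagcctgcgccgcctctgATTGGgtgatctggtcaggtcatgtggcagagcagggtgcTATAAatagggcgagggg
Srsf1: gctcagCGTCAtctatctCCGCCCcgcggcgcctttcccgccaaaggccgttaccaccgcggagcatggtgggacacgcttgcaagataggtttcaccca
Srsf11: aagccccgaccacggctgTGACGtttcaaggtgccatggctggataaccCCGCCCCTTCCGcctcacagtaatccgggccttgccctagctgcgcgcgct

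In the 250 bases before the start, TGACG was present in 6 of the 10 SR genes and in 17.8% of 32851 RefSeq promoter windows of that length. TATAA was present in 4 of 10 (22.8% of windows), in *Srsf2*, *Srsf3*, *Srsf6* and *Srsf7*. These 4 rose in the counts, as did *Srsf1*, *Srsf5* and *Srsf9* without a match, and no link of a motif with a change was tested. GGGCGG was present in 9 of 10 (32.7%), with *Srsf3* the exception, CGGAAG in 5 of 10 (13.6%) and CCAAT in 3 of 10 (33.8%). In the *Srsf11* window the GGGCGG and CGGAAG matches lie side by side in a single run of capitals. A TGACG match was shared by *Srsf11*, which was not called, and by *Srsf6*, *Srsf3* and *Srsf1*. Matches were taken on either strand and at any position in the 250 bases, so that the one printed for *Srsf6* reads TTATA, on the other strand. The motifs were chosen with earlier results of these data known. A match describes the sequence and does not show a bound site.

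The deposited TPM gave levels that can be ordered between genes. In WT, *Srsf5* was the highest, with 72.3 ± 4.17 TPM (SD, n = 3), and its lowest WT library, 67.5 TPM, exceeded every WT library of the other 9. *Srsf4* was the lowest, with 6.29 ± 0.810 TPM (SD, n = 3), and did not overlap the next gene in the order. Between them came *Srsf1* (40.9 ± 6.94 TPM), *Srsf11* (34.0 ± 2.82), *Srsf10* (31.4 ± 6.62), *Srsf3* (28.5 ± 8.15) and *Srsf2* (21.8 ± 4.04), whose neighbours in the order overlapped (SD, n = 3 each). *Srsf6*, *Srsf9* and *Srsf7* followed, with 14.0 ± 1.83, 11.4 ± 1.08 and 10.6 ± 1.16 TPM (SD, n = 3 each). The lowest *Srsf6* library, 12.6 TPM, lay just above the highest *Srsf9* library, 12.5 TPM, while *Srsf9* and *Srsf7* overlapped. In KO the mean of *Srsf6* was 31.1 ± 8.91 TPM and that of *Srsf5* 117 ± 30.0 TPM (SD, n = 3 each). Summed over the 10 genes, the level was 310, 369 and 497 TPM in KO1 to KO3, against 237, 305 and 271 TPM in WT1 to WT3, without overlap but with KO1 close to WT2.

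In TPM, 4 of the 10 SR genes rose and 0 fell (limma on log2(TPM + 1), adjusted p under 0.05 over 11691 genes), where 8.59% of all genes were called higher and 11.9% lower, 20.5% in all. Fold changes on this scale understate the change of low genes. *Srsf6* rose by 1.07 on the log2 scale (standard error 0.21, limma adjusted p = 0.0102), with 24.4, 27.6 and 41.2 TPM in KO1 to KO3, against 12.6, 16.1 and 13.3 TPM in WT1 to WT3. *Srsf2* had 31.7, 37.6 and 47.1 TPM in KO and 17.4, 25.2 and 22.9 TPM in WT (log2 difference 0.80, standard error 0.20, limma adjusted p = 0.0238). Both genes showed the genotypes apart, with KO3 the highest library. *Srsf5* (0.66) and *Srsf9* (0.69) were the other 2 called genes, at limma adjusted p-values of 0.0437 and 0.0411. KO and WT did not overlap in 5 of the 10, these 4 and *Srsf7* (0.49, adjusted p = 0.0741), against 17.6% of all genes with KO higher. *Srsf3* had 35.9, 50.3 and 60.7 TPM in KO and 21.2, 37.3 and 26.9 TPM in WT, where KO1 fell just below WT2 (0.77, limma adjusted p = 0.0577). An unadjusted p under 0.05 was reached by 6 of the 10, against 36.1% of all genes. The number called was 6 without KO1, 2 without KO2, 1 without KO3, 0 without WT1 (4 at an unadjusted p under 0.05), 3 without WT2 and 1 without WT3, and 0 without a filter on TPM (6 unadjusted). The share of all genes called was 27.6%, 13.9%, 12.5%, 4.21%, 11.6%, 7.85% and 3.94% in the same order. Without WT1 24.1% of all genes, and without a filter on TPM 21.4%, had an unadjusted p under 0.05.

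**Figure D3:**
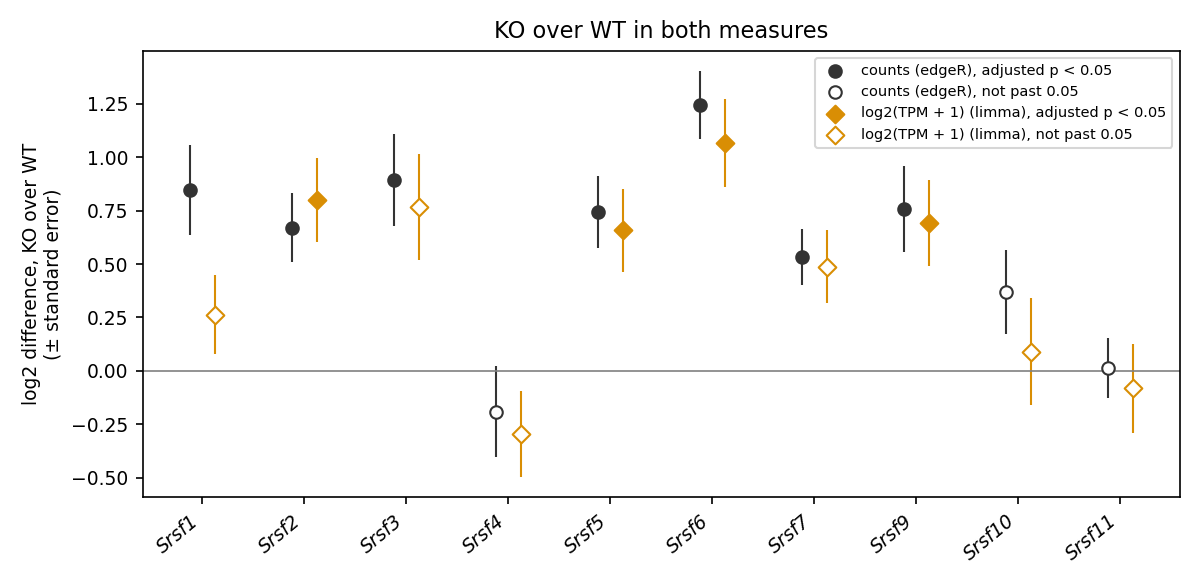
Log2 difference of KO over WT for each SR gene from counts in edgeR (circles) and from log2(TPM + 1) in limma (diamonds), with standard errors as bars. Filled symbols passed an adjusted p of 0.05. The measures lie close together for most genes, as at 1.25 and 1.07 for *Srsf6*, and apart for *Srsf1*, at 0.85 and 0.26.

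*Srsf1* differed most between the measures. It rose in the counts, whereas its TPM were 45.8, 43.0 and 58.9 in KO1 to KO3, against 32.9, 45.6 and 44.1 in WT1 to WT3. In TPM only KO1 and KO3 exceeded all WT libraries (log2 difference 0.26, standard error 0.19, limma adjusted p = 0.333). *Srsf4* had 3.53, 5.26 and 6.33 TPM in KO and 7.23, 5.77 and 5.88 TPM in WT (−0.30, limma adjusted p = 0.316). *Srsf10* (0.09) and *Srsf11* (−0.08) were also not called, at adjusted p-values of 0.820 and 0.798.

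A count takes any read on an annotated exon of a gene, those of retained introns and poison exons included, while TPM divides reads by transcript length. The log2 ratio of CPM to TPM in a library is therefore a value of its own, and it was compared between genotypes over 11185 genes with limma. Of the 10 SR genes 1 was called, with a higher ratio in KO, and 0 with a lower one, where 1.43% of all genes were called higher and 1.46% lower, 2.89% in all. This gene was *Srsf1*, with a log2 difference of 0.60 (standard error 0.12, limma adjusted p = 6.95e-05). In this fit limma drew the variance almost wholly from all genes, and the standard errors of the 10 genes were nearly alike, 0.122 to 0.132. The p-value therefore does not measure the spread of *Srsf1* itself between libraries. Whole libraries differed in the ratio, with a median log2 ratio over all genes from 1.60 in KO3 to 1.88 in KO1. With that median removed, *Srsf1* was at 0.42, 0.74 and 0.74 in KO1 to KO3, against −0.09, 0.18 and 0.02 in WT1 to WT3, with the genotypes apart. Tested on these centred values, a setting chosen after seeing the data, the difference was 0.60 but the adjusted p 0.0757. The standard errors then differed between genes, at 0.114 for *Srsf1* and 0.039 for *Srsf10*. Without centring, leaving out WT1 gave *Srsf1* a difference of 0.52 with an adjusted p of 0.149, the highest of all settings run, and no SR gene was then called (1 had an unadjusted p under 0.05, against 3.33% of all genes). The adjusted p of *Srsf1* reached down to 1.04e-11 over these settings.

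*Srsf10* was in the reverse position. Its centred log2 ratios were 0.05, 0.04 and −0.08 in KO1 to KO3, against −0.29, −0.26 and −0.28 in WT1 to WT3. The KO libraries lay above a tight group of WT libraries. The log2 difference of 0.28 (standard error 0.12) was not called without centring (limma adjusted p = 0.466) and was called with it (0.0364), as the single SR gene of 10, where 2.29% of all genes were called. It was also called without KO3 (0.000170), where 3 SR genes and 6.30% of all genes were called. The range over the alternatives was 0.000170 to 1. At the other 8 genes the difference without centring lay between −0.13 for *Srsf2* and 0.14 for *Srsf6*. In the centred ratios every KO library lay above every WT library in 5 of the 10 genes, *Srsf1*, *Srsf3*, *Srsf5*, *Srsf6* and *Srsf10* (12.4% of all genes), and below in 1, *Srsf2* (10.4% of all genes). The gaps of *Srsf3*, *Srsf5*, *Srsf6* and *Srsf2* were small, and none of these 4 was called (limma adjusted p 0.0866 to 0.322). In the same fit 5 of the 10 genes had an unadjusted p under 0.05, against 16.7% of all genes.

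**Figure D4:**
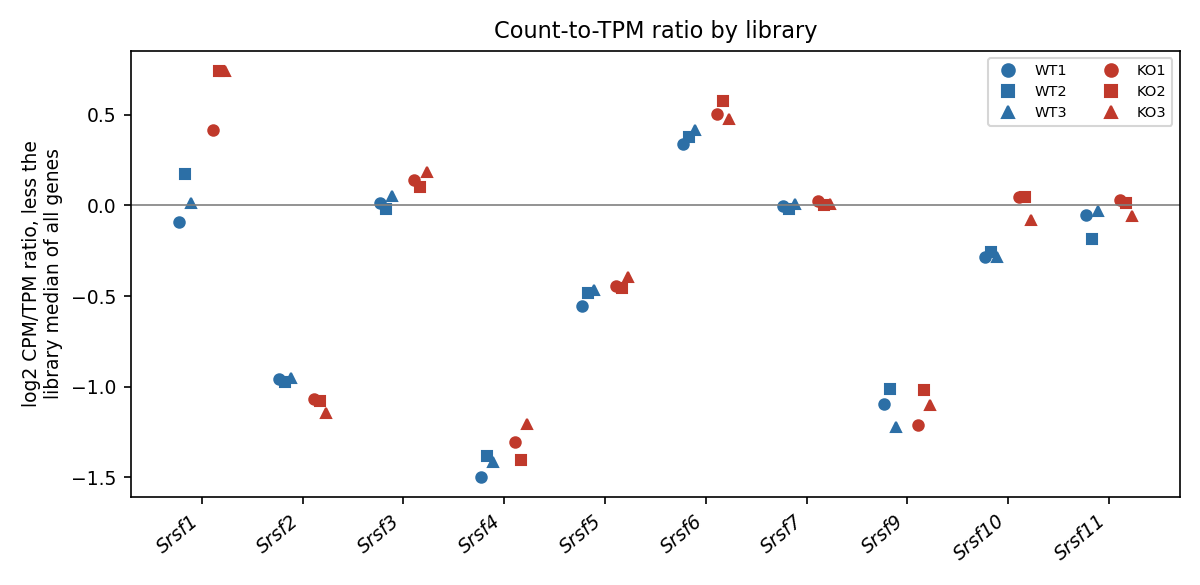
Log2 ratio of CPM to TPM of each SR gene in each library, less the median of all genes in that library. Points are single libraries, WT in blue and KO in red. KO lies wholly above WT for 5 genes, from *Srsf1*, at 0.42 to 0.74 against −0.09 to 0.18, to *Srsf5*, at −0.45 to −0.40 against −0.55 to −0.47, and wholly below it for *Srsf2*, at −1.14 to −1.07 against −0.98 to −0.95.

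The annotated transcripts of the SR genes differ in how much sequence is outside their coding transcripts. In GENCODE M21 on GRCm38, 9 of the 10 genes, all but *Srsf10*, have a transcript classed as a target of NMD, against 24.0% of the genes tested. The share of exon bases that belong only to non-coding transcripts was 66.9% in *Srsf3*, 60.6% in *Srsf11* and 58.5% in *Srsf5*. It was 36.6% in *Srsf4*, 32.3% in *Srsf2*, 27.4% in *Srsf7*, 24.9% in *Srsf9*, 23.2% in *Srsf6* and 16.6% in *Srsf10*. *Srsf1* had the lowest share, 2.66%. The share sets no limit on reads from transcripts that make no protein, since such transcripts also use bases of the coding ones. Which transcripts the reads came from was not tested, since the files hold values per gene.

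Among 25 SR-related splicing proteins, 24 were tested, 3 rose and 0 fell (edgeR), a share near the 12.1% of all genes called higher, with a median log2 fold change of 0.11. *Tra2a*, which encodes a splicing activator with serine- and arginine-rich domains at both ends, had 87.1, 118 and 109 CPM in KO1 to KO3, against 42.0, 68.4 and 49.9 CPM in WT1 to WT3. Its genotypes did not overlap (log2 fold change 0.97, standard error 0.20, edgeR adjusted p = 0.0156). *Tra2b*, its close relative, overlapped between genotypes through WT2 (0.44, adjusted p = 0.184). The other 2 that rose were *Scaf8* (0.64, adjusted p = 0.0143) and *Acin1* (0.60, adjusted p = 0.0232). The protein of *Scaf8* binds the tail of RNA polymerase II, and *Acin1* encodes a protein of the exon junction complex periphery. In TPM *Tra2a* (1.03, limma adjusted p = 0.0173) and *Scaf8* (0.59, 0.0498) were called higher, and *Acin1* (0.60, 0.120) was not called. Of all genes 8.59% were called higher in TPM. In the counts 6 of 24 had an unadjusted p under 0.05, a smaller share than the 39.0% of all genes. DESeq2 called 4, 1 of them lower, against 23.9% of all genes. Without WT1 or without WT3 none of the 24 was called, with 4 at an unadjusted p under 0.05 each time, where 26.5% and 30.3% of all genes had such a p.

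Among 13 genes for kinases, phosphatase subunits and transport factors of SR proteins, 2 fell and 0 rose (edgeR), where 10.6% of all genes were called lower. Both encode kinases of the CLK family, which act in the nucleus. *Clk3* had 25.7, 29.6 and 25.2 CPM in KO1 to KO3, against 69.1, 50.4 and 53.3 CPM in WT1 to WT3, with every KO library far below every WT library (log2 fold change −1.10, standard error 0.16, edgeR adjusted p = 0.00472). *Clk4* had 31.8, 24.0 and 36.2 CPM in KO and 56.0, 51.8 and 55.0 CPM in WT, also without overlap (−0.82, standard error 0.17, edgeR adjusted p = 0.0134). *Clk1* was at −0.41 (adjusted p = 0.119) and *Clk2*, added after its value was seen to complete the family, at 0.26 (adjusted p = 0.235). Of the SRPK kinases, which phosphorylate SR proteins in the cytoplasm, *Srpk1* was at 0.26 (adjusted p = 0.134), *Srpk2* at 0.0018 (0.994) and the muscle-enriched *Srpk3* at 0.95 (0.0739). An unadjusted p under 0.05 was reached by 5, near the share of all genes (39.0%). DESeq2 called 3, 1 of them higher, against 23.9% of all genes. Without WT1 and without WT3 1 gene was called each time, against 6.01% and 8.43% of all genes, shares near that of the list. The regional median relative to all genes was −0.23 at *Clk3* and −0.27 at *Clk4*. With regional medians removed, 2 genes of the list were called lower, as were 1343 of all 14828 genes tested. In TPM *Clk3* was called lower (−1.06, limma adjusted p = 0.00539), and *Clk4* was not called (−0.61, 0.0683). Of all genes 11.9% were called lower in TPM.

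Of 15 genes of NMD and the exon junction complex, 0 were called by edgeR and 0 by DESeq2, where 22.7% and 23.9% of all genes were called. At an unadjusted p under 0.05 there were 3 in edgeR, against 39.0% of all genes, and 2 in DESeq2, against 35.2%. *Upf1*, the helicase at the centre of NMD, had a log2 fold change of −0.10 (standard error 0.11, edgeR adjusted p = 0.557), and the median of the list was 0.08. Without KO1, 2 were called, and 30.6% of all genes. Of the 12 proliferation markers 2 rose, *Rrm2* (1.78) and *Mcm3* (1.10), where 12.1% of all genes were called higher. The median of these 12 was 0.48. Without KO1, 8 were called higher, where 15.5% of all genes were. The regional median relative to all genes was 0.44 at *Rrm2* and −0.08 at *Mcm3*. With regional medians removed, 3 of the 12 were called higher, where 10.3% of all genes were.

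**Figure D5:**
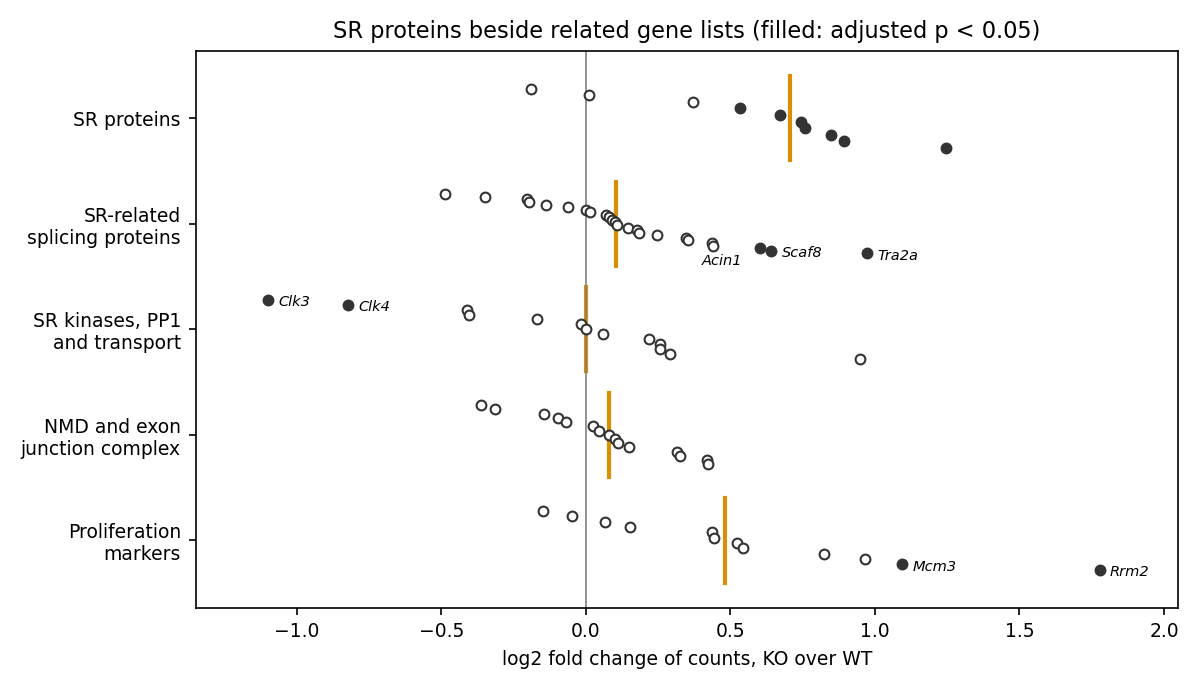
Log2 fold change of KO over WT from counts (horizontal axis) for the genes of 5 lists, a point for each gene tested. Filled points passed an edgeR adjusted p of 0.05 and vertical bars are medians, at 0.71 for SR proteins, 0.11 for SR-related proteins, 0.0018 for kinases, phosphatase and transport, 0.08 for NMD and the exon junction complex and 0.48 for proliferation markers. The called genes outside the SR proteins are labelled, with *Clk3* and *Clk4* on the negative side.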

How the data were processed

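Libraries were made from total RNA after removal of ribosomal RNA and read in pairs. Per the labels and methods, the authors trimmed reads with Trim Galore, aligned them with STAR and deposited raw counts per gene from featureCounts and TPM per library from StringTie, for which no versions are given in the sources used here. The labels name mm9 and the methods GRCm39, but deposited gene positions fit GRCm38, which is used here: 99.8% of the genes tested overlap their GENCODE M21 position and 74.2% are identical. Among the counts, 2 entries carry the name *Srsf1*, and the entry on a patch contig, with no reads, was left out. TPM values sharing an identifier in a library were summed.

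The members and the gene lists were chosen with earlier results of these data known, and so were the motifs. The genes named were the 10 members, *Hnrnpa2b1*, every called gene of the lists, and *Tra2a*, *Tra2b*, *Srpk1*, *Srpk2*, *Srpk3*, *Clk1* and *Upf1*. *Clk2* was named after its value was seen. Counts were TMM-scaled (factors 0.949 to 1.08), filtered with filterByExpr and tested two-sided with edgeR 4.0.16 in R 4.3.3. Log2(TPM + 1), for genes with at least 1 TPM in 3 libraries, and the log2 ratio of CPM to TPM, with 0.5 added to each, were tested with limma 3.58.1. DESeq2 1.42.0 was an alternative. P-values were adjusted by Benjamini-Hochberg over all genes tested, with a threshold of 0.05. The tests across genes were also run on simulated counts with a fixed spread for all genes and no shift of the ratio in a whole library. That run could not show how such a shift affects the ratio test. Libraries of a genotype differed beyond sampling noise (chi-square over its degrees of freedom 50.1 to 189), so none was a copy.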

Additional observations from a re-analysis of the deposited data

How the results depend on the processing

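Of 310 settings run for single SR genes in the 3 measures, 236 kept direction and side of the threshold, and the cause of the other results was not tested. The 236 include genes that were not called in the main fit and stayed so. A call of the main fit was lost in 45 settings, 25 in counts, 18 in TPM and 2 in the ratio. With a library left out in turn, 933 to 4712 genes were called in counts, 484 to 3156 in TPM and 121 to 689 in the ratio. The SR genes called were 1 to 7, 0 to 6 and 0 to 3. The called numbers were 0 to 3 for SR-related proteins, 1 to 3 for kinases, phosphatase and transport, 0 to 2 for NMD and 2 to 8 for proliferation markers. Without a filter, which tests more genes, TPM gave 1075 genes and 0 SR genes. A pseudocount of 0.1 gave 187 genes in the ratio. DESeq2 and no filter each called 4 proliferation markers, all higher, where 12.3% and 7.67% of all genes were called higher. Library totals called 1 NMD gene, higher, as were 15.5% of all genes. They gave 2295 genes higher and 1174 lower in place of 1796 and 1565, with a median of all genes at 0.15 in place of 0.03, and called the same number of SR genes, 7.

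Same-numbered KO and WT libraries did not deviate together (r = 0.17, −0.12 and −0.07 across genes), so the numbers were not taken as pairs. With the replicate number as a block, 2520 genes and 7 SR genes were called in counts, 2103 and 5 in TPM, 189 and 1 in the ratio, and 4 proliferation markers. The SR genes and markers called were all higher. Of all genes 8.83% were called higher in counts, 7.84% in TPM and 0.778% in the ratio.

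Values near 0 changed sign. In counts *Srsf11* was at −0.014 in DESeq2, −0.0031 with DESeq2-style factors, −0.014 without a filter and −0.014 with the regional median removed, and at −0.12 to 0.085 with a library left out. In TPM *Srsf10* was at −0.16 to 0.31 and *Srsf11* at −0.31 to 0.074 with a library left out. In the ratio *Srsf9* was at −0.0055 with a pseudocount of 0.1, −0.00015 when centred and −0.064 to 0.084 with a library left out, *Srsf7* at −0.054 to 0.11 and *Srsf11* at −0.0039 to 0.20. TPM scaled by TMM factors, chosen after seeing the data, called 6 SR genes, all higher, where 22.9% of all genes were called and 11.8% were called higher. The lowest of the 10 genes had 197 reads in a library, and the effect of depth was not tested.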
